A study of Mus musculus with 2 samples.

Results

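The replication-dependent histone genes are the clustered genes for the linker histone H1 and the core histones H2A, H2B, H3 and H4. They were taken as every row of the deposited expression table with a name that starts with HIST1H, HIST2H, HIST3H or HIST4H, which gave 63 of 25430 gene names. The 63 rows hold 65 names, and all 65 matched the RefSeq gene table. One row joins HIST1H1E, HIST1H2BE and HIST1H2BH, and since it mixes classes it was counted in the totals and in no class. The others were 5 H1, 18 H2A, 15 H2B, 12 H3 and 12 H4 rows. RefSeq lists HIST1H2AL and HIST3H2BB as pseudogenes.

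RNA was sequenced from primary mouse embryonic fibroblasts, connective tissue cells grown out of embryos of day 13.5 of gestation. Both cultures descended from matings of parents heterozygous for Sptbn1, the gene of the membrane skeleton protein beta-2 spectrin. The labels call 1 library wild type and 1 Sptbn1 knockout, so each genotype had 1 library, and they do not say how many embryos each holds. Sptbn1, listed under its older name Spnb2, had 36.6 FPKM in the library labelled knockout, which is 52.5% of the 69.6 FPKM in the library labelled wild type. The value is lower there but far from 0, and a value per gene does not show which exons the fragments came from. Knockout and wild type below mean the libraries so labelled. Every difference compares these 2 libraries, has no replicate check and carries no test of its own.

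In dividing cells the core histones form the protein spool that DNA winds around, and H1 binds where the DNA enters and leaves it. Cells make most of this protein during S phase, when the DNA is copied, from many near-identical genes that lie in clusters and have no introns. Their mRNAs normally carry no poly(A) tail: they end just after a short hairpin, the histone stem-loop, which the stem-loop binding protein Slbp holds from the nucleus to the ribosome. Some of these genes can also give longer, polyadenylated mRNAs in resting or differentiated cells.

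The hairpin is shown because it sets these mRNAs apart from nearly all others and because H4 differs from the other classes in it. It was looked for as a 6-base stem around a 4-base loop in the GENCODE transcripts of the mouse, whose build is GRCm38. Of 63 names with a protein-coding transcript, 48 had an annotated 3′ end of 16 bases or more past the stop codon, and 44 of these held the hairpin. The same pattern was present in 34 of 44292 other protein-coding transcripts, or 0.0768%. In the members it started 21 to 58 bases past the stop codon, with a median of 31. The sites of members described below are given 5′ to 3′ as DNA, with the 16 bases of the hairpin in capitals and 5 bases on either side.
HIST1H4D: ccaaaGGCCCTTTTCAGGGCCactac
HIST1H4C: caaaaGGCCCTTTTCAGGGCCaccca
HIST1H4J: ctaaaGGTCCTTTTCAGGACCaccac
HIST2H4: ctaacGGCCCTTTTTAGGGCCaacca
HIST1H3E: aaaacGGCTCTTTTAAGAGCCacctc
HIST2H2AC: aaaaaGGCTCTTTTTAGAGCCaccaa
HIST1H1C: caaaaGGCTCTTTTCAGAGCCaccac
In all 11 H4 names with a match the stem opened with GGCCC (9 names) or GGTCC (2 names). The 4 H1, 10 H2A, 10 H2B and 9 H3 names with a match all opened with GGCTC. The commonest of 8 hairpins, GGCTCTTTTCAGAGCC, was held by 25 names. The annotated models of HIST1H2AK and HIST1H2BL, which come up below, have no bases past the stop codon, so no hairpin could be looked for there.

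Levels are FPKM as deposited, fragment numbers adjusted for transcript length and for the size of the library. Of the 63 rows, 9 were listed at 0 in both libraries, 4 in one of them and 50 in neither. A row was called measured when its mean over the libraries was 1 FPKM or more, which held for 35 histone rows and 11070 genes in all. The measured histone rows were 4 H1, 6 H2A, 10 H2B, 7 H3, 7 H4 and the joined row. In pairs of values the knockout library comes first. Summed over the 63 rows, histone FPKM was 787 in knockout and 582 in wild type, a ratio of 1.35.

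**Figure D1:**
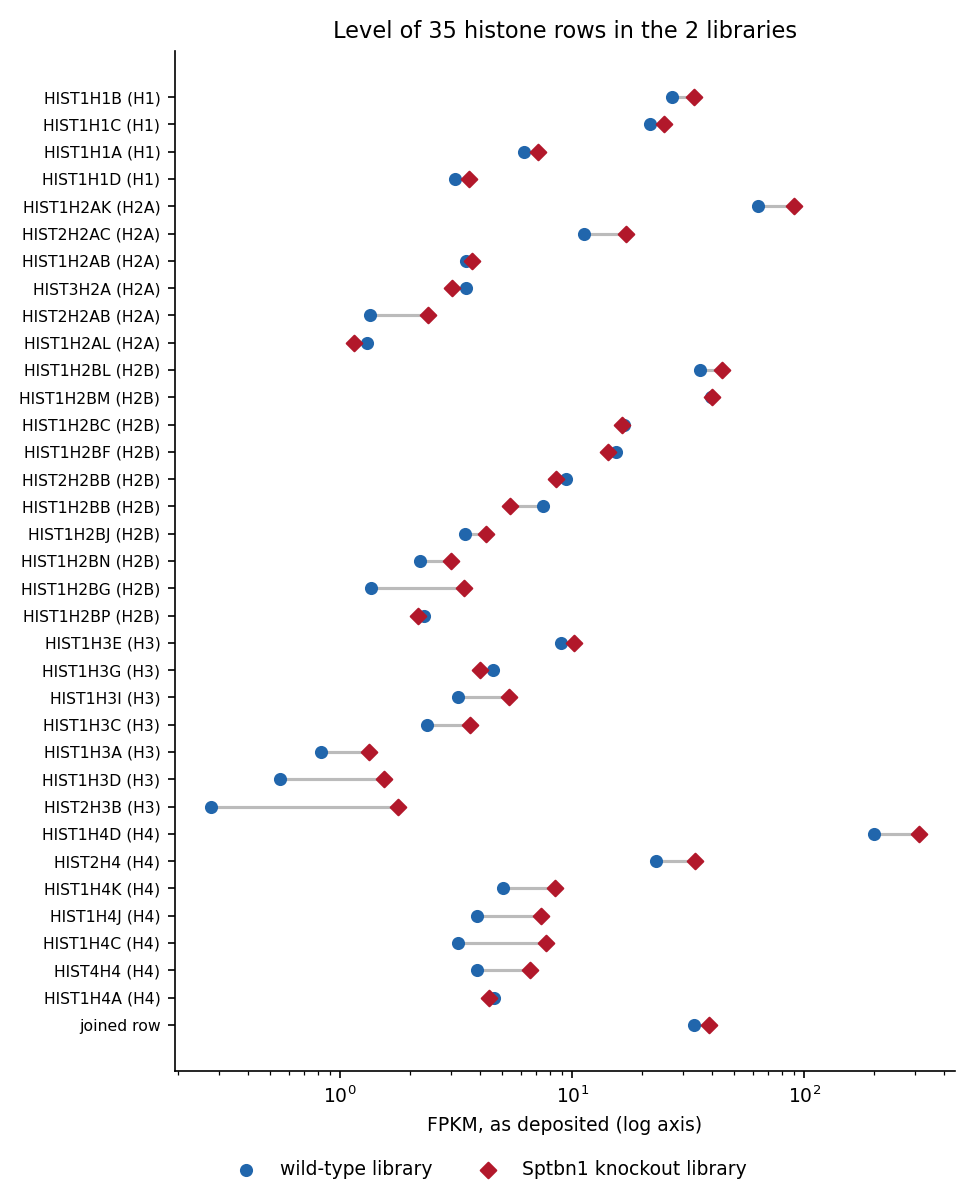
Deposited FPKM (horizontal log axis) of the 35 measured histone rows, ordered by class and level, with circles for the wild-type library and diamonds for the Sptbn1 knockout library. HIST1H4D stands above all others at 314 and 200 FPKM, and HIST2H3B has the widest gap at 1.77 and 0.276 FPKM.

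Most histone rows were listed higher in the knockout library, and H4 was the class with the largest difference by median and by summed level. Each difference is the log2 of (knockout FPKM + 1) over (wild-type FPKM + 1). The added 1 makes the gaps of low rows look smaller than they are. Of the 35 measured rows, 26 were above 0 and 9 below, against 36.9% of all measured genes above 0. The 9 rows that were at least 1.5-fold higher compare with 1.04% of all measured genes, and no histone row was 1.5-fold lower, against 1.23%. At least 2-fold higher were HIST2H3B and HIST1H4C, against a background of 0.361%, and none was 2-fold lower, against 0.379%. The differences ranged from -0.41 to 1.12. The median of all measured genes was -0.05, and the middle 90% of them lay between -0.36 and 0.28. Shares varied with length, taken from the longest GENCODE transcript of a gene. Under 600 bases, 3 of 18 histone rows were at least 1.5-fold higher, against 14.3% of 49 other protein-coding genes. Above 0 were 12 of these 18, against 53.1%. From 600 to 1000 bases, 3 of 8 histone rows were at least 1.5-fold higher, against 2.51%. From 1000 to 2000 bases it was 2 of 5, against 1.22%, and from 2000 bases 1 of 4, against 0.230%.

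By class, the median difference was 0.64 for H4, 0.46 for H3, 0.28 for H2A, 0.18 for H1 and -0.00 for H2B. The measured H2A rows include the pseudogene HIST1H2AL, at -0.11. The H2A median lies in a gap between HIST1H2AB at 0.06 and HIST1H2AK at 0.50. Leaving out the pseudogene would therefore raise it, and the order of H2A and H3 is not firm. Of the 14 measured H3 and H4 rows, 8 were at least 1.5-fold higher in knockout and their median was 0.61. Of the 21 other measured rows, 1 was at least 1.5-fold higher and their median was 0.17. This split was described after the class values were seen. It depends in part on the added 1. HIST2H2AC and HIST2H2AB lay just under 1.5-fold, at 0.56 and 0.53, and past it at 0.60 and 0.79 with 0.1 added instead. By summed level H3 did not stand above H2A, with ratios of 1.32 and 1.37. With the libraries scaled to a common FPKM sum, which moved the median of all measured genes by 0.39, the H2B median was 0.45 and 34 of the 35 rows were above 0. On that scale 94.7% of all measured genes were above 0, so the count of members is near the background there. When small RNA, ribosomal RNA and predicted names and 3 further rows were left out of the sum, the median of all measured genes moved by 0.02. The H2B median was then 0.02 and 26 of the 35 rows were above 0.

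**Figure D2:**
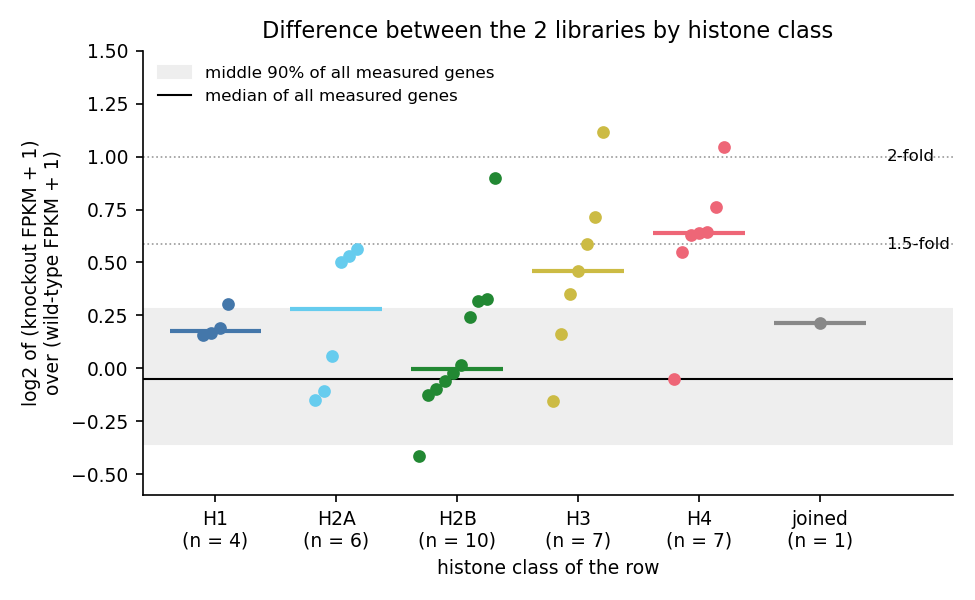
Log2 ratio of knockout over wild type (vertical axis) of each measured histone row by class, with a bar at the class median, the 1.5-fold and 2-fold levels as dotted lines, and the median and middle 90% of the 11070 measured genes as a line and a band. Of the 7 H4 rows, 6 lie above the band, while 6 of the 10 H2B rows lie between -0.13 and 0.24.

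H4 is the core histone that pairs with H3 and was the class with the highest summed level. HIST1H4D (current symbol H4c4) was listed at 314 FPKM in knockout against 200 in wild type, a difference of 0.64. This row held 81.4% of the H4 sum in knockout and 81.5% in wild type. The H4 sums were 385 and 246 FPKM, a ratio of 1.57, and the ratio without HIST1H4D was also 1.57. The second H4 row by level, HIST2H4, had 34.0 and 22.9 FPKM, a difference of 0.55. HIST1H4C had 7.68 FPKM in knockout against 3.21 in wild type, a difference of 1.04. HIST1H4J had 7.32 and 3.90 FPKM, a difference of 0.76. HIST1H4K was at 0.64 and HIST4H4, which lies alone on chromosome 6, at 0.63. The measured H4 row that was not higher was HIST1H4A, with 4.39 FPKM in knockout against 4.59 in wild type, a difference of -0.05, or 0.34 on a common FPKM sum. The H4 rows listed higher therefore came from 3 separate loci: the HIST1 cluster on chromosome 13, HIST2 on chromosome 3 and HIST4 on chromosome 6. HIST4 is HIST4H4 alone, whose counting interval, given below, holds a ratio of 1.

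H3, whose tail carries many of the chromatin marks, was much lower in level, with sums of 29.8 FPKM in knockout against 22.6 in wild type. HIST2H3B had 1.77 FPKM in knockout against 0.276 in wild type, a difference of 1.12. HIST1H3D had 1.547 and 0.552 FPKM, a difference of 0.71, and HIST1H3I 5.32 and 3.21 FPKM, a difference of 0.59. The 2 most abundant H3 rows, HIST1H3E and HIST1H3G, lay nearer to 0. HIST1H3I was almost level with HIST1H3G, at means of 4.26 and 4.29 FPKM, so this is no clear split by abundance. HIST1H3E was listed at 10.2 FPKM in knockout against 8.96 in wild type, a difference of 0.16. HIST1H3G was listed at 4.003 and 4.57 FPKM, a difference of -0.16 that turned to 0.23 on a common FPKM sum. The high H3 median rests on rows with a mean under 5 FPKM: among H3 rows of 5 FPKM or more, which leaves HIST1H3E alone, it was 0.16.

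H2A and H2B form the dimers that complete the histone core. HIST1H2AK held 74.8% of the H2A sum in knockout and 72.0% in wild type, with 90.3 and 63.3 FPKM, a difference of 0.50. HIST2H2AC had 17.1 and 11.3 FPKM, a difference of 0.56. The summed H2A level was 121 FPKM in knockout against 88.0 in wild type, a ratio of 1.37, or 1.24 without HIST1H2AK. Without that row, and with the pseudogene HIST1H2AL still counted, the H2A median was 0.06. HIST3H2A, the measured row of the HIST3 cluster on chromosome 11, had 3.04 and 3.47 FPKM, a difference of -0.15, or 0.22 on a common FPKM sum.

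H2B sums were close to each other, at 143 FPKM in knockout against 134 in wild type, a ratio of 1.07. HIST1H2BL had 44.5 FPKM in knockout against 35.5 in wild type, a difference of 0.32. HIST1H2BM was listed at 39.9 and 39.5 FPKM, a difference of 0.01. The class spread widely around its median. HIST1H2BG was at 3.40 FPKM in knockout against 1.36 in wild type, a difference of 0.90. HIST1H2BB, at 5.38 and 7.49 FPKM, had the lowest difference of all measured histone rows, -0.41. HIST2H2BB had 8.53 and 9.40 FPKM, a difference of -0.13, or 0.30 on a common FPKM sum.

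The 4 measured H1 rows were all slightly higher in the knockout library. HIST1H1B had 33.5 FPKM there against 26.9 in wild type, a difference of 0.30. HIST1H1C had 24.9 and 21.7 FPKM, a difference of 0.19. HIST1H1A had 7.09 and 6.20 FPKM, a difference of 0.17. The H1 variants make up the linker histone of somatic cells in different proportions. HIST1H1D had 3.60 and 3.12 FPKM, a difference of 0.16. HIST1H1T, the variant of male germ cells, was listed at 0.147 and 0.137 FPKM. The joined row, which holds H1 and H2B names, had 38.8 and 33.4 FPKM, a difference of 0.21.

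The precision of these values could be read in part from the table itself. Within a class, many FPKM values were whole multiples of a single step, the FPKM worth of 1 fragment, which is the same for genes quantified with the same length. A shared length is inferred from the steps, since the authors' gene models were not used here. The GENCODE transcripts of the resolved H4 rows differ, from 312 to 2863 bases, so lengths from GENCODE were not used to adjust the FPKM. The grouping of genes by length above is rough for the same reason. Whole steps held for 19 of the 50 rows above 0 in both libraries: 4 H2A, 6 H2B, 3 H3 and 6 H4 rows. For H4 a fragment was worth 0.366 FPKM in knockout against 0.229 in wild type, and over the 4 classes the step was 1.59 to 1.60 times as large in the knockout library. The knockout library was thus the shallower. Fragment numbers below are the smallest that fit, and the true numbers could be larger by a common factor. The 95% exact intervals (Clopper-Pearson) cover counting error only, and not variation between cultures or the sharing of fragments among copies.

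The widest FPKM gaps rested on few fragments. HIST2H3B had 8 fragments in knockout and 2 in wild type, an FPKM ratio of 6.41 with an interval of 1.28 to 62.0. HIST1H4C had 21 and 14 fragments, a ratio of 2.39 with an interval of 1.16 to 5.09. HIST1H4J, HIST1H4K and HIST4H4 had ratios of 1.88, 1.67 and 1.69. Their intervals all held 1, at 0.933 to 3.81, 0.888 to 3.14 and 0.821 to 3.49. For the abundant rows the intervals were narrow. HIST1H2AK had 379 and 426 fragments, a ratio of 1.42 with an interval of 1.24 to 1.64. HIST1H2BL had 177 and 226 fragments, a ratio of 1.25 with an interval of 1.02 to 1.53. HIST1H2BM, close to it in level, had 159 and 252 fragments and a ratio of 1.01, with an interval of 0.823 to 1.24. In these 19 rows the interval lay above 1 for 4, below 1 for none and held 1 for 15. Summed over the resolved rows of a class, the H4 ratio was 1.66 (1.24 to 2.24) and the H2A ratio 1.43 (1.25 to 1.64). For H3 it was 1.38 (0.961 to 1.97) and for H2B 1.11 (0.976 to 1.26), both holding 1. The intervals of H4 and H2B met only between 1.24 and 1.26. HIST1H4D, HIST2H4 and the H1 rows are not among the resolved rows. The H4 sum, of 95 and 91 fragments, thus leaves out the most abundant H4 rows and covers a small part of the class. HIST1H2AK held 379 of the 394 H2A fragments in knockout and 426 of 441 in wild type. The H2A sum is therefore nearly that row alone.

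**Figure D3:**
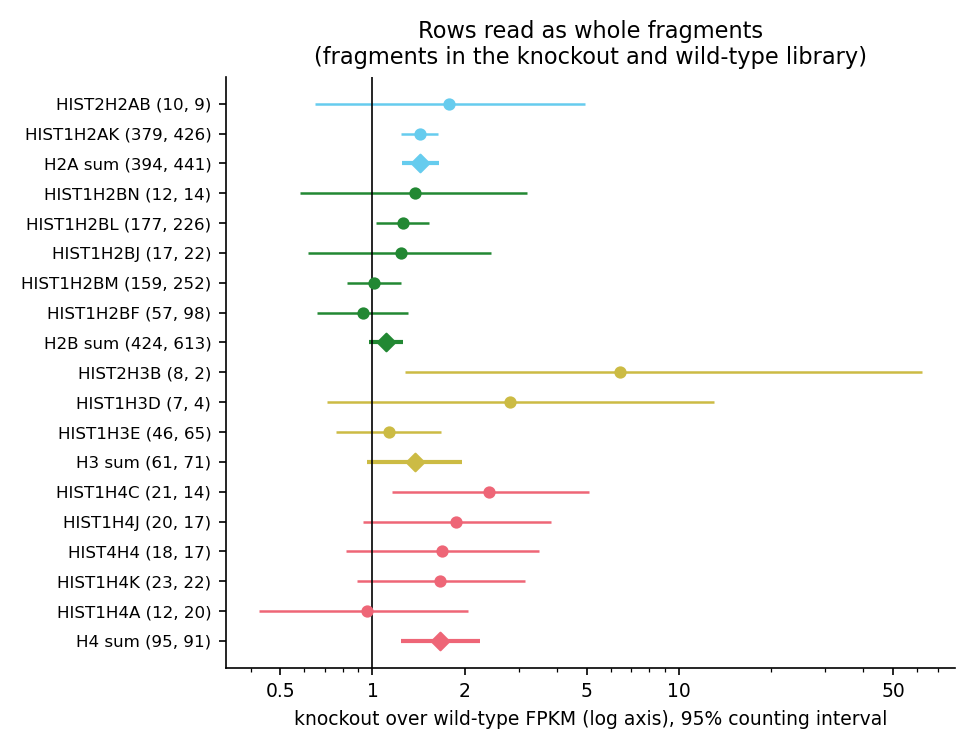
Knockout over wild-type FPKM ratio (horizontal log axis) of histone rows with 8 or more fragments in the 2 libraries together, with 95% exact counting intervals, the fragment numbers in brackets, and diamonds for class sums. The H4 and H2A sums, at 1.66 and 1.43, have intervals above 1, and those of H2B and H3 cross it. Sums cover resolved rows only: H2A is nearly all HIST1H2AK, and H4 is without HIST1H4D and HIST2H4.

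In the authors' deposited table, 2 of the 35 measured histone rows had a p-value below 0.05, against 5.6% of all measured genes. In the authors' deposited table these were HIST1H2AK at 0.0257 and HIST2H3B at 0.0334. HIST1H4D stood at 0.0502 in the authors' deposited table. Those p-values rest on 1 library per genotype and hold no spread between cultures.

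Histone genes are so alike that fragments can fit several of them, and Cufflinks divides such fragments by estimate. The coding sequences of 55 H2A, H2B, H3 and H4 names were compared without gaps, each with its closest relative of the same class and coding length. Relatives of another length were not compared, so a name can have a closer relative than the one found. The median identity was 98.4%, 44 names had a relative at 95% or more and 4 had an identical one. HIST2H3B was 99.8% identical to HIST2H3C2, which was listed at 0.842 FPKM in knockout against 0.925 in wild type. HIST1H4D was the more distinct, at 94.2% to HIST1H4J. Levels of single members are therefore uncertain, and a class sum depends less on how shared fragments were divided.

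The H2A and H2B genes often stand head to head, their starts facing apart from a shared stretch of DNA. In the RefSeq start sites 8 such pairs were found, with starts 164 to 281 bases apart, each an H2A gene with an H2B gene. The stretches between the starts of a pair with a dominant H2A partner, a pair with a dominant H2B partner and the pair of HIST1H2BG are shown, on the plus strand of GRCm38.p6, with the CCAAT box, the TATA motif TATAAA and the octamer ATTTGCAT of either strand in capitals. They were chosen after the levels were seen.
HIST1H2AK and HIST1H2BN, chr13:21753913-21754075: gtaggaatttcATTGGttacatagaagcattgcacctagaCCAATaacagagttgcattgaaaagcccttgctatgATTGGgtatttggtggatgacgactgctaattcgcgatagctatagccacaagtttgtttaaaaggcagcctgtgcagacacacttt
HIST1H2BL and HIST1H2AI, chr13:21716184-21716411: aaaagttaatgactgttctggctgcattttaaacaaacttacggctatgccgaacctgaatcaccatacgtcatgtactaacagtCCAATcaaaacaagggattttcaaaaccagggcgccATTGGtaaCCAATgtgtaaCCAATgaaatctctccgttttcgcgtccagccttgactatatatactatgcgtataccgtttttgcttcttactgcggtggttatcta
HIST1H2AE and HIST1H2BG, chr13:23571221-23571399: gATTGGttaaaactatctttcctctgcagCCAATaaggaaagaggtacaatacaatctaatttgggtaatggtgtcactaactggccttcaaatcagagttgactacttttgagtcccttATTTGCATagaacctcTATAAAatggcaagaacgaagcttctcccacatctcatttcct
Partners across such a stretch were listed at very different levels. HIST1H2AK was 29.9-fold above HIST1H2BN in knockout and 28.8-fold in wild type, with the partner at 3.01 and 2.20 FPKM. HIST1H2BL was 62.2-fold above HIST1H2AI in knockout and 79.5-fold in wild type, with the partner at 0.714 and 0.446 FPKM. HIST1H2AI had 3 inferred fragments in each library, so the size of these 2 folds is uncertain. HIST1H2BG was 8.38-fold above HIST1H2AE in knockout and 2.39-fold in wild type. HIST1H2BF was listed at 14.3 and 15.4 FPKM, while its partner HIST1H2AD was listed at 0 in both libraries. In 1 of the 8 pairs both partners were measured. The 3 stretches hold 3, 4 and 2 CCAAT motifs.

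**Figure D4:**
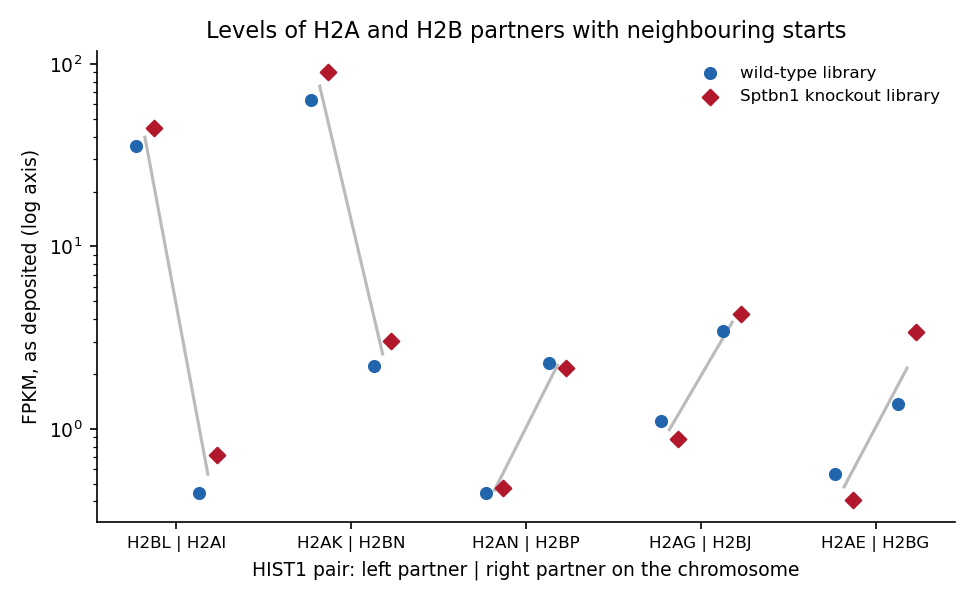
Deposited FPKM (vertical log axis) of the 5 head-to-head HIST1 pairs with both partners above 0, the left partner on the chromosome first, with circles for the wild-type library and diamonds for the knockout library. In the wild-type library the gap between partners ran from 2.39-fold for HIST1H2BG over HIST1H2AE to 79.5-fold for HIST1H2BL over HIST1H2AI. HIST1H2AI had 3 inferred fragments in each library.

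Promoter motifs differed by class as well. In the 250 bases before the start of 58 member names, CCAAT (either strand) was found in all 6 H1, 17 H2A and 14 H2B promoters, in 8 of 10 H3 and in 3 of 11 H4 promoters. The share was 82.8% over all members and 34.4% of 26967 other promoters of the same length. TATAAA was found in 48.3% of member promoters, including 5 of 11 H4 promoters, against 12.9% of the others. The octamer ATTTGCAT, which factors of the Oct family bind, was found in 7 of 17 H2A and 6 of 14 H2B promoters and in no H1, H3 or H4 promoter, against 1.56% of the others. AAACACA, the letters of the H1 box, was found in 5 of 6 H1 promoters, against 6.20% of the others. All 4 motifs were searched on both strands, neighbouring matches may share bases, and a match is only a match of letters. Windows of head-to-head partners overlap, so they are not independent.

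The members were set beside the genes that act on them. Of 12 measured genes for histone mRNA transcription and 3′-end processing, 5 were above 0 and 7 below, with a median of -0.05, which turned to 0.35 on a common FPKM sum. The gene with the widest gap, Lsm10, which codes for a subunit of the U7 particle that cuts histone mRNA, had 4.49 FPKM in knockout against 8.65 in wild type, a difference of -0.81. Cpsf2, of the cleavage complex, was at -0.22, and Npat, the coactivator of histone genes in S phase, at -0.18. Eri1, a nuclease that trims the hairpin end, was at -0.17. Slbp, chosen after its value was seen, was listed at 7.38 and 7.28 FPKM.

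A list of histone genes taken as replication-independent had a median of 0.08, against -0.05 for all measured genes. It includes H2ax and Cenpa, and how far each gene depends on S phase was not checked. Of 10 measured, 6 were above 0, against 36.9% of all measured genes, and none was 1.5-fold higher, against 1.04%. H3f3c was listed at 10.2 FPKM in knockout against 16.6 in wild type, a difference of -0.66. Macroh2a2, which codes for a large H2A variant, was at 0.42, H3f3a, for the replacement histone H3.3, at -0.27 and H2aj at 0.22. The 21 measured histone chaperone genes had a median of -0.04, with Daxx at -0.29, Asf1b at -0.21, Chaf1b at -0.20 and Mcm2 at -0.17, and that median was 0.39 on a common FPKM sum.

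The medians of cell cycle genes lay slightly above that of all measured genes, which was -0.05. Of 33 measured S-phase genes, 19 were above 0, against 36.9% of all measured genes, with a median of 0.02. None was 1.5-fold higher, against 1.04%. Among them were Rfc4 at -0.62 and Gmnn at 0.35, with Tk1 at 0.27 and Rfc3 at 0.24. Of 19 measured genes of G2 and mitosis, 12 were above 0, against the same 36.9%, with a median of 0.04, and none was 1.5-fold higher. Kif20a and Cdc20 stood at 0.29, Ccnb2 at 0.23 and Aurkb at -0.23.

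Other RNAs that carry no poly(A) tail were measured in 3 cases, and all 3 were at least 1.5-fold higher in knockout. Rmrp, the RNA of a mitochondrial and nucleolar ribonuclease, had 77.3 FPKM there against 41.7 in wild type, a difference of 0.87. Rn7sk, which holds back the elongation factor P-TEFb, was at 1.56, and Rpph1, the RNA of ribonuclease P, at 1.00. Of the other 8 rows of that list, 6 were listed at 0 in both libraries. The part of RNA selection in the histone values was not tested. In the annotated transcripts, 17 member names had a poly(A) signal (AATAAA or ATTAAA) after the hairpin. The 8 measured members among them had a median difference of 0.37, the 14 with a hairpin and no such signal 0.20, and the 11 with no hairpin in the model 0.33.

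**Figure D5:**
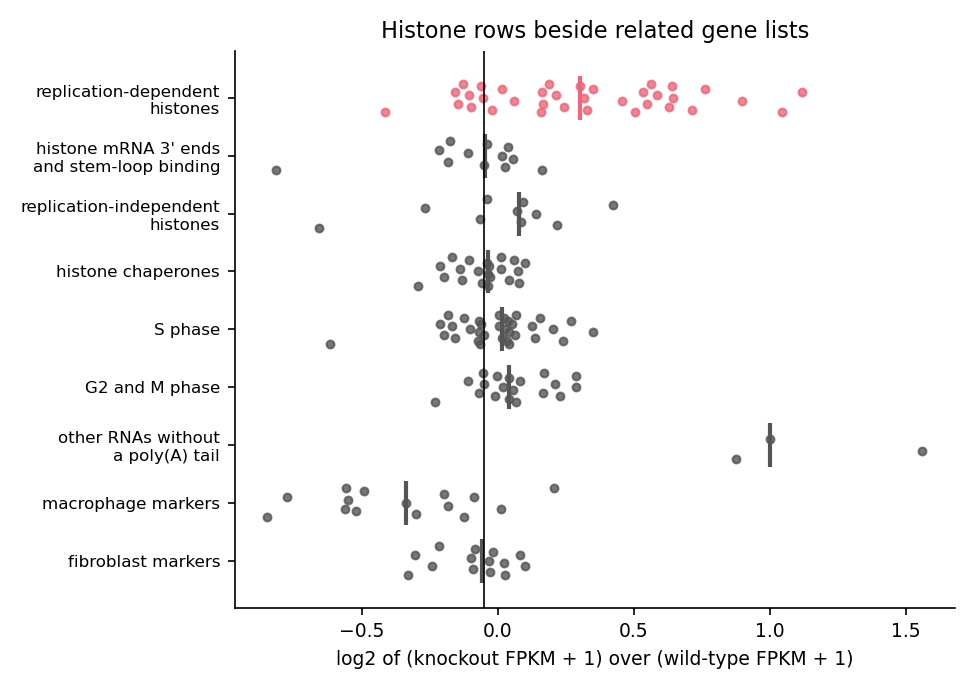
Log2 ratio of knockout over wild type (horizontal axis) of each measured gene of the histone set and of 8 lists, with a bar at each median and a line at the median of all measured genes. The histone rows have a median of 0.30, the S-phase and G2 and M lists 0.02 and 0.04, and the 3 other RNAs without a poly(A) tail lie between 0.87 and 1.56.

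By level, the 6 histone rows with a mean of 30 to 400 FPKM were all above 0, with a median of 0.31. Of 856 other genes of that range, 37.4% were above 0 and the median was -0.06. In that range 1 histone row was at least 1.5-fold higher, against 3.15% of the other genes. Each lower range held some histone rows below 0. From 10 to 30 FPKM, 3 of 5 histone rows were above 0, against 32.18% of other genes, with a median of 0.19. None of these 5 was at least 1.5-fold higher, against 0.813%. From 5 to 10 FPKM, 6 of 8 were above 0, against 36.05%, with a median of 0.399. At least 1.5-fold higher were 4 of these 8, against 0.465%. From 1 to 5 FPKM, 11 of 16 were above 0, against 39.18%, with a median of 0.29. At least 1.5-fold higher were 4 of these 16, against 0.842%. Medians of the other genes in these lower ranges lay between -0.06 and -0.04.

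By cluster, the 28 measured rows of HIST1 had a median of 0.23 and the 5 of HIST2 one of 0.55. Within the HIST1 stretch of chromosome 13, RefSeq places 199 other genes, 50 of them in the table and 3 measured. Zfp184, a zinc finger gene, was listed at 46.9 FPKM in knockout against 13.0 in wild type, a difference of 1.77, while Zfp322a was at 0.01 and Hfe at -0.16.

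The cell type label was checked against marker genes. All 14 fibroblast markers were measured, at 2.88 to 948 FPKM on average, with a median difference of -0.06, or 0.40 on a common FPKM sum. The summed level of 15 macrophage markers was 826 FPKM in knockout against 1316 in wild type. The joined lysozyme row of Lyz1 and Lyz2 made up 69.3% and 74.4% of these sums, and the other 14 summed to 253 and 337 FPKM. None of the 15 was at 0 FPKM in both libraries. Of their differences, 13 were below 0, and their median of -0.34 was 0.10 on a common FPKM sum. In bulk RNA, fewer cells of a type and less RNA per cell cannot be told apart, and the part of other cells in the histone values was not tested. Endothelial, epithelial and erythroid lists had 1 measured marker each, 7 of 8 erythroid rows were at 0 in both libraries, and no germ cell marker was measured.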

How the data were processed

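RNA from 1 wild-type and 1 Sptbn1 knockout library was prepared from 1 µg of total RNA with the TruSeq RNA kit, per the labels' protocols, which give no selection step. Per the series' design text, the authors aligned reads with TopHat2 (version 2.0.10, also in the submitters' processing notes) to NCBI mouse build 37.2, estimated FPKM with Cufflinks and compared the libraries with Cuffdiff2. Per the file headers, the deposited table gives FPKM for each library, a log2 fold column (not used here) and a p-value per row. The wild-type column carries a -/- mark beside its wild-type name and was matched by the library's title, so all directions rest on that reading. A listed 0 can be a failed estimate.

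For a repeated name the row of the highest mean FPKM was used. Differences use a pseudocount of 1 FPKM, and measured means an average of 1 FPKM or more. FPKM columns summed to 279927 (knockout) and 386567 (wild type). The sources used here give no fragment totals. Whole-fragment steps were accepted within 0.005 of a whole number, and only for step ratios in a narrow preset range. The search was tested on simulated data with a step ratio inside that range. Names and promoters are RefSeq's on GRCm38.p6 and transcripts GENCODE's on GRCm38, not the build of the reads, so no value was read by coordinate. Python 3.11.15, numpy 2.4.6, pandas 2.3.3 and scipy 1.17.1 were used.

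The members and gene lists were chosen with earlier results of these data known. Named in full are the 4 highest and 4 lowest differences among measured members, the 2 members of highest level per class, all measured H1 rows, up to 4 measured genes with the largest differences of the lists on histone mRNA, histones, chaperones, cell cycle and untailed RNAs, and Sptbn1. Other members, such as HIST1H3D, HIST1H3I, HIST1H4A and HIST1H4K, and the partners in pairs were named after their values were seen. The alternatives tried were a pseudocount of 0.1, 4 scalings, other minimum levels, joined rows left out and repeated names summed.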

Additional observations from a re-analysis of the deposited data

How the results depend on the processing

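With 1 library per genotype, the values describe these 2 libraries, and no replicate could be left out. No paired analysis was possible because each genotype has 1 library. Values with no spread were called alike within 0.1 on the log2 scale and counts within 1.5 times. Scaling to a common upper quartile, centring on the median gene, a common sum without small RNA, ribosomal RNA and predicted names, leaving out joined rows and summing repeated names moved none of the medians and counts of the members or classes past these limits. That common sum also left out 3 single rows, Dnaja1, Mir682 and Rpl39. Without those names and rows, the common sum raised the median of all measured genes by 0.02. A common FPKM sum over all rows raised that median by 0.39. It gave a member median of 0.67, with 22 members at least 1.5-fold and 10 at least 2-fold higher (9.16% and 0.985% of all measured genes on that scale), and class medians of 0.61 for H1, 0.66 for H2A, 0.45 for H2B, 0.84 for H3 and 1.06 for H4. Relative to the median gene the members stood at 0.35 on the deposited scale and 0.33 on the common sum. A pseudocount of 0.1 gave 13 members at least 1.5-fold and 4 at least 2-fold higher, against 1.87% and 0.542% of all measured genes. The H3 median was then 0.62. A minimum of 5 FPKM left 19 members, of which 15 were above 0, 5 at least 1.5-fold and 1 at least 2-fold higher (34.8%, 1.15% and 0.429% of all genes past that minimum), with medians of 0.53 for H2A and 0.16 for H3. With no minimum, 50 members had a median of 0.18, H2A 0.030 and H3 0.26. Without HIST1H2AK, an alternative chosen after seeing the data, the H2A median was 0.060, and without HIST1H4D the H4 median was 0.63. The cause of these shifts was not tested. Of the 19 rows with inferred fragment numbers, 15 had counting intervals that held a ratio of 1, abundant rows such as HIST1H2BM among them.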
